A study of Mus musculus with 64 samples.

Results

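The 30 genes described here mark B cells and the lymphoid follicles in which B cells gather in the gut wall. They were taken as a fixed list of gene names, and all 30 were found in both deposited tables, each of which holds 35534 genes. The study measured RNA of whole colon by poly(A)-selected sequencing in 64 libraries from wild-type Swiss Webster mice, an outbred stock, aged 8 to 12 weeks and kept on standard chow with 12 h of light and 12 h of dark. Some mice were specific pathogen free (SPF) and had a gut microbiota. The others were germ-free (GF), bred with no microbes. Vancomycin, a glycopeptide antibiotic against Gram-positive bacteria, was injected into the peritoneum at 2.5 mg in 100 µl PBS, 2 times a day for 3 days with a last dose on day 4. Control mice received 100 µl of PBS on the same schedule. Germ-free mice of both treatments were taken out of their isolators into Tecniplast cages for as long as they were treated. Colon was collected at ZT5, ZT11, ZT17 and ZT23, where ZT is zeitgeber time counted in hours after the lights turn on, which gave 16 groups of 4 libraries. The title asks which antibiotic effects on gut immunity arise without the microbiota. Whether every library comes from its own animal is not stated in the labels, so the p-values reflect only how far these libraries vary.

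B cells recognise antigen through the B cell receptor, whose signalling chains are Cd79a and Cd79b. In the colon they are held in isolated lymphoid follicles and colonic patches, scattered along the wall. Lymphotoxin made by lymphocytes induces stromal cells to secrete Cxcl13, which draws B cells bearing Cxcr5 into the follicle, while Ccl19 attracts cells bearing Ccr7. Pax5 and Ebf1 maintain B cell identity, and Bcl6 directs the germinal centre, where B cells mutate their receptors. Plasma cells, the antibody-secreting progeny of B cells, lose most of these genes and lie dispersed in the lamina propria.

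Promoter windows of 4 members are shown, chosen because they hold motifs of B cell transcription factors. Whether these motifs bear on the members' levels was not tested. The windows come from RefSeq on build GRCm38.p6, while the deposited values were made on GRCm39. Each runs from 250 bases before to 50 bases after the gene's start. Capitals mark the matches to 5 motifs searched on both strands.
Cd79a, chr7:24897247-24897546, plus strand: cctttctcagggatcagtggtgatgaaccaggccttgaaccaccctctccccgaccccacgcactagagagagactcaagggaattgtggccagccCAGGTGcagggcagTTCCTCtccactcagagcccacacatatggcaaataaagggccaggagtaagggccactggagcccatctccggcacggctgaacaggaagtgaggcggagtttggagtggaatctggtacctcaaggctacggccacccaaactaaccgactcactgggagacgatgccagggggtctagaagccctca
Cd22, chr7:30878979-30879278, minus strand: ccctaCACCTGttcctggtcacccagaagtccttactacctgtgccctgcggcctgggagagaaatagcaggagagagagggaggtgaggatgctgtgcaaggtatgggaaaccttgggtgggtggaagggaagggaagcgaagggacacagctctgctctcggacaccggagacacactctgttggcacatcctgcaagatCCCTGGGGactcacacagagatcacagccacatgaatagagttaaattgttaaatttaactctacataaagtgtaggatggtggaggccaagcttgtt
Ltb, chr17:35194257-35194556, plus strand: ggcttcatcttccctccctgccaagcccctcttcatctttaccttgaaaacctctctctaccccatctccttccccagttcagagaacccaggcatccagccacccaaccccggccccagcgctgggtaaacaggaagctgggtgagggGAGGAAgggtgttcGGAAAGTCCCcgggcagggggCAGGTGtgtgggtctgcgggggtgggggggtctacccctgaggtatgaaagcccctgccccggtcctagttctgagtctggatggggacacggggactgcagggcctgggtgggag
Vpreb3, chr10:75948050-75948349, plus strand: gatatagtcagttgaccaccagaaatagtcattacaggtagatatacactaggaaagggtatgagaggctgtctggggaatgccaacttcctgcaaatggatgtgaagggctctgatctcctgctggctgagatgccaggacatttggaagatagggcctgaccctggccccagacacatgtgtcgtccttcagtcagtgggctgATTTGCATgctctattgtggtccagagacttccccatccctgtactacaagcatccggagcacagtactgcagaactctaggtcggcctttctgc
The Cd79a window holds a match to the E-box of E2A (CAGGTG) 154 bases before the start and one to the ETS core of PU.1 and Spi-B (GAGGAA, here on the other strand) 140 bases before it. The Cd22 window holds the EBF1 palindrome (CCCNNGGG) 48 bases and an E-box 245 bases before the start. In Ltb, an NF-kB match (GGG, any 2 bases and TTTCC, on the other strand) lies 87 bases before the start, between an ETS core at 101 and an E-box at 66. Vpreb3 holds the octamer (ATGCAAAT, on the other strand) 45 bases before its start.

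Windows were in the table for 24 of the 30 members, and Cd79b, Ms4a1, Blk, Ikzf3, Cxcr5 and Ccr7 were matched to none. These members had 29 windows in all, since 4 have more than 1. The ETS core was in 12 of the 29 windows (41.4%) and in 28.3% of the 32851 mouse windows. The E-box was in 10 (34.5%) against 20.2%, and the EBF1 palindrome in 3 (10.3%; Bank1, Cd22 and Spib) against 13.7%. The octamer was in 2 (6.9%; Ccr6 and Vpreb3) against 1.74%, and the NF-kB motif in 1 (3.45%; Ltb) against 1.63%. The ETS core can overlap the NF-kB motif, and a match describes letters only.

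The deposited estimated counts per library summed to between 10044032 and 13615804 for SPF colon and between 10513966 and 15736087 for GF colon. Values below are in CPM, the usual depth-scaled unit, computed from effective library sizes after TMM normalisation (the trimmed mean of M-values). The SPF and GF tables were scaled apart, so their levels stand side by side without a test. All 30 members had at least 10 estimated counts in at least 4 libraries of each table and were tested there. Detection was thin in GF colon, where Vpreb3 reached 10 estimated counts in 13 of 32 libraries and was at 0 in 6, and Ccr7 reached 10 in 18 and was at 0 in 3. Some GF libraries also differed in makeup: Hoxb13, a Hox gene of the distal colon, lay at 0.163 to 19.4 CPM in 12 of them and at 65.3 to 463 CPM in the other 20, and Y-linked genes were expressed in 21 and near background in 11. All 32 SPF libraries expressed Y-linked genes, and their Hoxb13 lay between 83.1 and 437 CPM.

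The level of the set in a library is given as the mean log2 CPM over the 30 members. In SPF colon it ran from 1.06 to 5.42, with a median of 3.90, and in GF colon from -0.61 to 5.96, with a median of 1.82. Libraries of 1 group often differed by more than the groups did. The SD within groups was 1.28 in SPF and 1.79 in GF colon, and the 8 groups held 24.4% of the variation in SPF and 33.1% in GF colon. The median share held by the groups over all genes tested was 33.1% in SPF and 26.8% in GF colon. In bulk tissue, fewer B cells and less RNA per cell cannot be told apart, and whether a piece of colon held a follicle was not recorded in the labels used here.

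In SPF colon after PBS, the 4 libraries at ZT5 had levels of 4.66, 3.69, 1.64 and 3.06, and those at ZT11 had 1.72, 5.06, 1.66 and 2.15. At ZT17 they had 3.77, 4.04, 3.42 and 3.43, the closest group of the 16, and at ZT23 they had 3.20, 4.49, 2.78 and 5.42. After vancomycin the values were 4.24, 5.20, 4.95 and 5.19 at ZT5, and 2.31, 5.27, 1.06 and 5.19 at ZT11. They were 4.81, 5.04, 3.38 and 1.98 at ZT17, and 4.52, 4.40, 3.16 and 4.92 at ZT23. The treatments overlapped at each of the 4 times, and at ZT11 each treatment held both high and low libraries. The mean over all times was 3.39 ± 1.19 (SD, n = 16) after PBS and 4.10 ± 1.33 (n = 16) after vancomycin.

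In GF colon after PBS, the levels were 4.17, -0.04, -0.52 and 0.94 at ZT5, and 4.47, 3.38, 0.06 and 3.44 at ZT11. They were 0.57, -0.46, 4.21 and -0.04 at ZT17, and 3.47, 4.73, 5.96 and 3.57 at ZT23. After vancomycin they were 0.29, 0.15, 3.51 and 4.18 at ZT5, and -0.61, 1.81, 2.97 and 2.52 at ZT11. At ZT17 they were 5.10, 1.32, 1.83 and 1.16, and at ZT23 they were -0.20, 1.41, 2.11 and 0.58. ZT23 was the time at which the treatments did not overlap, with all PBS libraries above all vancomycin libraries. The mean over all times was 2.37 ± 2.20 (SD, n = 16) after PBS and 1.76 ± 1.60 (n = 16) after vancomycin.

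**Figure D1:**
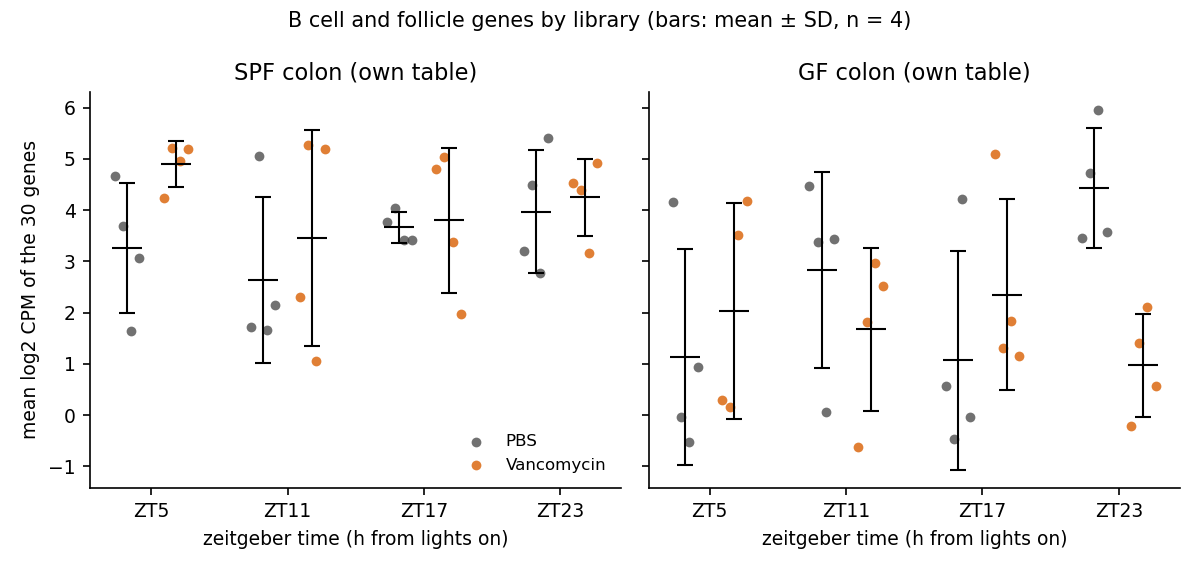
Each point is a library, placed by zeitgeber time (x axis, in h from lights on) and by the mean log2 CPM of the 30 genes (y axis), with SPF colon on the left and GF colon on the right. Bars are the mean and SD of 4 libraries. Points of 1 group can lie far apart (GF colon after PBS at ZT5 runs from -0.52 to 4.17), and at ZT23 in GF colon all PBS points lie above all vancomycin points.

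The first comparison asked whether vancomycin altered these genes in SPF colon, averaged over the 4 times. All 30 members had a positive log2 fold change (vancomycin minus PBS), from 0.25 in Cr2 to 1.22 in Ccr7, with a median of 0.75, while the median over all 16938 genes tested was -0.00403. No member passed an adjusted p of 0.05 in edgeR's quasi-likelihood test, against 0.809% of all genes tested (137 genes, and 47 to 518 with each library left out in turn). At an unadjusted p under 0.05 there were 4 members (Ccr7, Ltb, Ebf1 and Bcl6), a share of 13.3% against 16.2% of all genes, and DESeq2 called 0. The members vary together, so their common sign is not that of 30 separate measurements. Single libraries weighed on the comparison in both directions. Without SPF PBS ZT11 replicate 2 the median was 1.21, 28 members had an unadjusted p under 0.05 and 0 passed. Without SPF Vancomycin ZT11 replicate 2 the median was 0.57 and 2 members had an unadjusted p under 0.05.

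Among the chains of the B cell receptor in SPF colon, Cd79a lay at 6.48, 36.1 and 155 CPM (lowest, median and highest of 16 libraries) after PBS and at 4.78, 93.0 and 178 CPM after vancomycin. Cd79b, its partner chain, lay at 2.84, 20.5 and 77.4 CPM after PBS and at 3.10, 50.7 and 96.3 CPM after vancomycin. The ranges overlapped almost fully, and it was the medians that stood apart. The log2 fold change was 0.79 (SE 0.45, edgeR adjusted p = 0.393) for Cd79a and 0.80 (SE 0.45, adjusted p = 0.389) for Cd79b.

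Surface molecules of mature B cells followed the same order. Ms4a1, which encodes CD20, lay at 5.59, 17.03 and 81.5 CPM after PBS and at 3.02, 42.7 and 70.2 CPM after vancomycin (log2 fold change 0.61, SE 0.42, edgeR adjusted p = 0.501). Cd22, an inhibitory co-receptor, lay at 3.96, 17.5 and 106 CPM after PBS and at 1.51, 42.0 and 130.3 CPM after vancomycin (0.76, SE 0.54, adjusted p = 0.512). Both treatments held libraries near the bottom of the range and libraries near its top. Cr2, the complement receptor of mature B cells and follicular dendritic cells, lay at 1.38, 15.6 and 89.9 CPM after PBS and at 0.671, 29.3 and 81.8 CPM after vancomycin, with the smallest fold change of the set (0.25, SE 0.58). Fcer2a, the low-affinity IgE receptor, lay at 1.98, 18.2 and 95.7 CPM after PBS and at 1.84, 43.1 and 61.1 CPM after vancomycin (0.55, SE 0.47). Neither passed, with edgeR adjusted p values of 0.882 for Cr2 and 0.6 for Fcer2a.

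The transcription factors Pax5 and Spib gave similar values. Pax5 lay at 1.93, 24.4 and 64.8 CPM after PBS and at 1.68, 45.2 and 111 CPM after vancomycin (log2 fold change 0.88, SE 0.47, edgeR adjusted p = 0.353). Spib, an ETS factor of B cells that M cells also express, lay at 9.44, 22.4 and 91.9 CPM after PBS and at 8.13, 54.2 and 76.6 CPM after vancomycin (0.63, SE 0.35, adjusted p = 0.375). In both genes the ranges overlapped widely, and the highest library was a vancomycin library for Pax5 and a PBS library for Spib.

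Of the genes that place lymphocytes in the follicle, the stromal chemokine Cxcl13 lay at 7.93, 21.4 and 74.0 CPM after PBS and at 4.86, 45.2 and 61.8 CPM after vancomycin (log2 fold change 0.55, SE 0.32, edgeR adjusted p = 0.408). Its receptor Cxcr5 lay at 1.01, 6.07 and 25.04 CPM after PBS and at 0.755, 16.8 and 28.8 CPM after vancomycin (0.75, SE 0.43, adjusted p = 0.395). The ligand and the receptor thus had medians in the same order and ranges that overlapped. Ccr7, which guides T cells, dendritic cells and B cells toward Ccl19 and Ccl21, lay at 0.506, 5.35 and 31.6 CPM after PBS and at 0.335, 16.5 and 59.4 CPM after vancomycin (1.22, SE 0.51, adjusted p = 0.234). Ltb, the lymphotoxin chain that anchors the complex in the membrane, lay at 6.09, 23.3 and 87.0 CPM after PBS and at 7.21, 55.1 and 134 CPM after vancomycin (0.91, SE 0.39, adjusted p = 0.257). The remaining 16 members, among them the chemokine Ccl19, the chemokine receptor Ccr6, the soluble lymphotoxin Lta, the BAFF receptor Tnfrsf13c and the inhibitory receptor Btla, had log2 fold changes from 0.45 in Bach2 to 0.95 in Fcmr, and 0 of them passed.

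At single times in SPF colon the median log2 fold change of the members was 1.30 at ZT5, 0.88 at ZT11, 0.57 at ZT17 and 0.02 at ZT23. The members with a positive value numbered 30 at ZT5 and 16 at ZT23. No member was called at any of the 4 times by edgeR, where 0.0827%, 0%, 0.319% and 0% of all genes were called in the order of time. The members with an unadjusted p under 0.05 numbered 4, 1, 1 and 0 at these times, and DESeq2 called 0, 0, 1 (Bcl6, adjusted p = 0.0145) and 0. Without SPF PBS ZT5 replicate 1 there were 14 members at an unadjusted p under 0.05 at ZT5. There was 1 without SPF PBS ZT5 replicate 3, SPF PBS ZT5 replicate 4 or SPF Vancomycin ZT5 replicate 4. The ZT5 median ran from 1.00 (without SPF PBS ZT5 replicate 3) to 1.91 (without SPF PBS ZT5 replicate 1). The ZT11 median depended on the library SPF PBS ZT11 replicate 2, without which it was 2.89 with 27 members at an unadjusted p under 0.05, and without SPF Vancomycin ZT11 replicate 2 it was 0.39. The ZT17 median ran from 0.17 (without SPF Vancomycin ZT17 replicate 2) to 0.87 (without replicate 4), and the ZT23 median lay between -0.25 and 0.76 as each library was left out in turn. Treatment by time called 0 members against 0.36% of all genes, with 1 member at an unadjusted p under 0.05 and 0 called by DESeq2, so a difference between times was not shown.

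At ZT5 in SPF colon, Cd79a was at 106, 52.4, 6.48 and 27.3 CPM after PBS and at 75.0, 178, 112 and 104 CPM after vancomycin. The highest PBS library lay within the vancomycin range. Btla was at 16.5, 9.21, 2.47 and 5.30 CPM after PBS and at 16.9, 37.3, 36.3 and 73.9 CPM after vancomycin, and here the groups just failed to overlap. Groups that did not overlap, with vancomycin higher, were found at ZT5 in 3 members (Btla, Ebf1 and Ikzf3, a zinc finger factor of lymphocytes), against 4.12% of all genes. No member had vancomycin lower without overlap at ZT5 (4.62% of all genes). None showed separate groups at the other times, where the shares of all genes with vancomycin higher and lower were 1.42% and 1.61% at ZT11, 2.56% and 3.33% at ZT17, and 2.11% and 3.02% at ZT23.

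Ebf1 and Bcl6, which cells other than B cells also express, are described apart. Ebf1 in SPF colon after PBS was at 28.4, 25.2, 22.2 and 23.01 CPM at ZT5, 34.6, 37.4, 35.3 and 31.6 at ZT11, 25.8, 23.1, 19.2 and 16.1 at ZT17, and 25.2, 29.9, 17.98 and 31.6 at ZT23. After vancomycin it was at 37.4, 47.1, 29.6 and 72.0 CPM at ZT5, 33.2, 49.7, 23.8 and 75.8 at ZT11, 27.5, 36.3, 28.8 and 18.99 at ZT17, and 24.2, 26.03, 18.4 and 23 at ZT23. The highest value after vancomycin was at ZT11 and the lowest at ZT23, and libraries of all 4 times overlapped except those of ZT5 and ZT23. Time of day after vancomycin was the 1 comparison of 17 in which a member was called: Ebf1 had an edgeR adjusted p of 0.0238 (0.00325 in DESeq2), and 8.2% of all genes were called. All 8 smooth muscle markers were called in the same test, with adjusted p from 4.69e-04 to 0.00646, and all 8 were also called for time of day after PBS. Their summed level after vancomycin had medians of 8504 CPM at ZT5, 18069 at ZT11, 10853 at ZT17 and 7325 at ZT23, and their part in the Ebf1 call was not tested. The call was lost without SPF Vancomycin ZT23 replicate 3 (adjusted p = 0.0650) or replicate 4 (0.0522), and across all libraries left out in turn the adjusted p ran from 0.00873 to 0.0650. After PBS the time-of-day test called 0 members, against 8.9% of all genes, with 0 at an unadjusted p under 0.05 and 0 called by DESeq2, and Ebf1 had an adjusted p of 0.252. Without SPF PBS ZT11 replicate 2 there were 14 members at an unadjusted p under 0.05 after PBS. Whether the time effect differed between treatments for Ebf1 was part of the treatment by time test above, which called no member.

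Bcl6 in SPF colon at ZT17 was at 15.2, 15.99, 19.7 and 14.8 CPM after PBS and at 38.5, 40.7, 23.2 and 19.5 CPM after vancomycin. The lowest vancomycin library lay just under the highest PBS library. The log2 fold change was 0.89 (SE 0.22, edgeR adjusted p = 0.0901, DESeq2 adjusted p = 0.0145), and edgeR called it without SPF Vancomycin ZT17 replicate 4. Over all times it lay at 12.5, 16.4 and 30.1 CPM (lowest, median and highest) after PBS and at 16.8, 22 and 40.7 CPM after vancomycin (0.35, SE 0.11, adjusted p = 0.116). Ebf1 over all times had a value of 0.38 (SE 0.14, edgeR adjusted p = 0.171) on that scale.

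**Figure D2:**
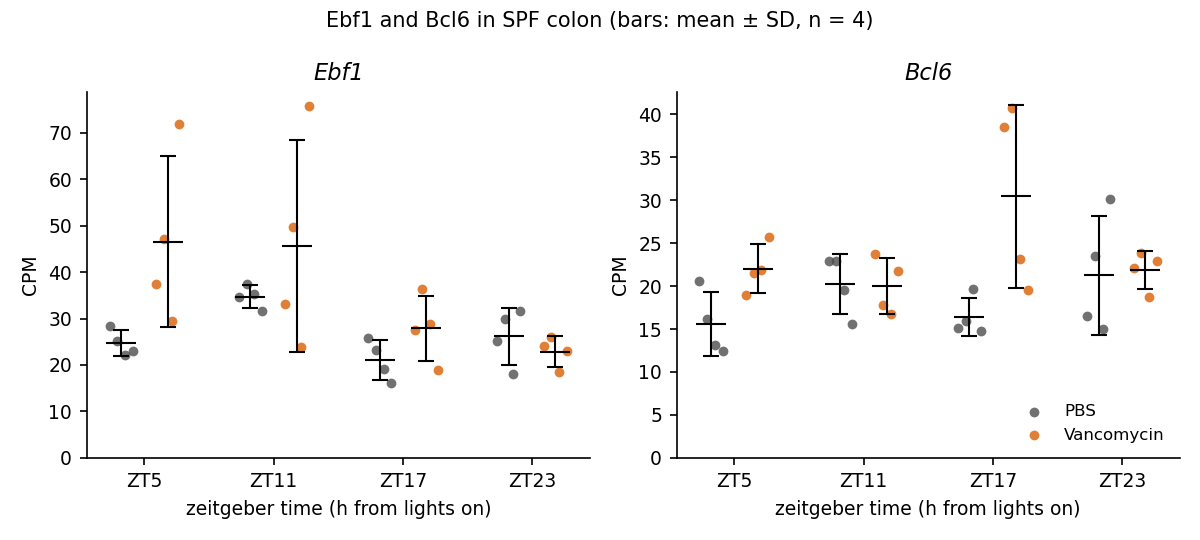
Ebf1 (left) and Bcl6 (right) in CPM (y axis) in each SPF library by zeitgeber time (x axis, in h from lights on), with bars for the mean and SD of 4 libraries. After vancomycin Ebf1 reaches 72.0 CPM at ZT5 and 75.8 CPM at ZT11 and stays at 18.4 to 26.03 CPM at ZT23, and Bcl6 has its highest points, 38.5 and 40.7 CPM, at ZT17.

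In GF colon over all times, 29 of 30 members had a negative log2 fold change, with a median of -0.88, while the median of all 16951 genes tested was 0.00669. None was called by edgeR or DESeq2, and edgeR called 0% of all genes. An unadjusted p under 0.05 was seen in 1 member, Bach2 (log2 fold change -0.72, SE 0.29), and in 3.96% of all genes. Without GF Vancomycin ZT17 replicate 1 the median was -1.40 and 21 members had an unadjusted p under 0.05, and without GF PBS ZT17 replicate 3 the median was -0.20. Y-linked genes were expressed in 14 of 16 PBS and 7 of 16 vancomycin libraries, and with a Y-linked covariate the median was -0.42. With a distal Hox covariate it was -0.30. In either fit no member passed. In a fit of the libraries that expressed Y-linked genes alone, the median was -0.67.

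On the log2 CPM scale, 28 of the 30 members had a wider range over GF than over SPF libraries, the exceptions being Bcl6 and Lta. Cd79a lay at 0.444, 34.7 and 198 CPM (lowest, median and highest of 16 libraries) after PBS and at 0.405, 6.75 and 116 CPM after vancomycin (log2 fold change -1.08, SE 0.76). Cd79b lay at 0.370, 19.3 and 144 CPM after PBS and at 0.202, 3.44 and 62.4 CPM after vancomycin (-1.05, SE 0.76). Libraries nearly without either chain were found in both treatments. Ms4a1 lay at 0.962, 14.5 and 104 CPM and at 1.21, 4.80 and 49.0 CPM in the same order (-0.81, SE 0.55). Cd22 lay at 0.403, 14.7 and 189.8 CPM after PBS and at 0.744, 4.50 and 73.5 CPM after vancomycin (-1.12, SE 0.71). Cr2 lay at 0, 16.3 and 256 CPM after PBS and at 0.0674, 4.51 and 52.0 CPM after vancomycin (-1.44, SE 0.82). For each of these surface molecules the PBS median was above the vancomycin median, inside wide and overlapping ranges.

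Fcer2a lay at 0.222, 10.5 and 87.6 CPM after PBS and at 0.0674, 2.36 and 46.6 CPM after vancomycin (log2 fold change -1.03, SE 0.75). Pax5 lay at 0, 84.8 and 519 CPM after PBS and at 0, 11.7 and 253 CPM after vancomycin (-1.89, SE 0.92), the largest difference of the set. Spib lay at 2.02, 20.8 and 91.1 CPM after PBS and at 2.36, 10.4 and 63.6 CPM after vancomycin (-0.58, SE 0.48). In none of these 3 genes did the treatments separate. Cxcr5 lay at 0.444, 5.804 and 35.7 CPM after PBS and at 0.337, 1.66 and 23.1 CPM after vancomycin (-0.73, SE 0.57). Cxcl13 lay at 1.53, 19.6 and 72.3 CPM after PBS and at 0.674, 9.84 and 66.6 CPM after vancomycin (-0.48, SE 0.58). Ccr7 lay at 0, 1.94 and 47.8 CPM after PBS and at 0, 0.818 and 16.9 CPM after vancomycin (-1.03, SE 0.75). Among these follicle genes the highest library of each treatment stood far above its median. Ltb lay at 1.69, 22.2 and 115 CPM after PBS and at 1.62, 7.20 and 69.6 CPM after vancomycin (-0.71, SE 0.55). Bcl6 was level, at 9.60, 16.2 and 21.7 CPM after PBS and 10.5, 16.2 and 23.2 CPM after vancomycin. Ebf1 lay at 7.60, 16.6 and 41.9 CPM after PBS and at 6.50, 13.1 and 29.5 CPM after vancomycin (-0.39, SE 0.24). Every edgeR adjusted p in this comparison rounded to 1.00.

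**Figure D3:**
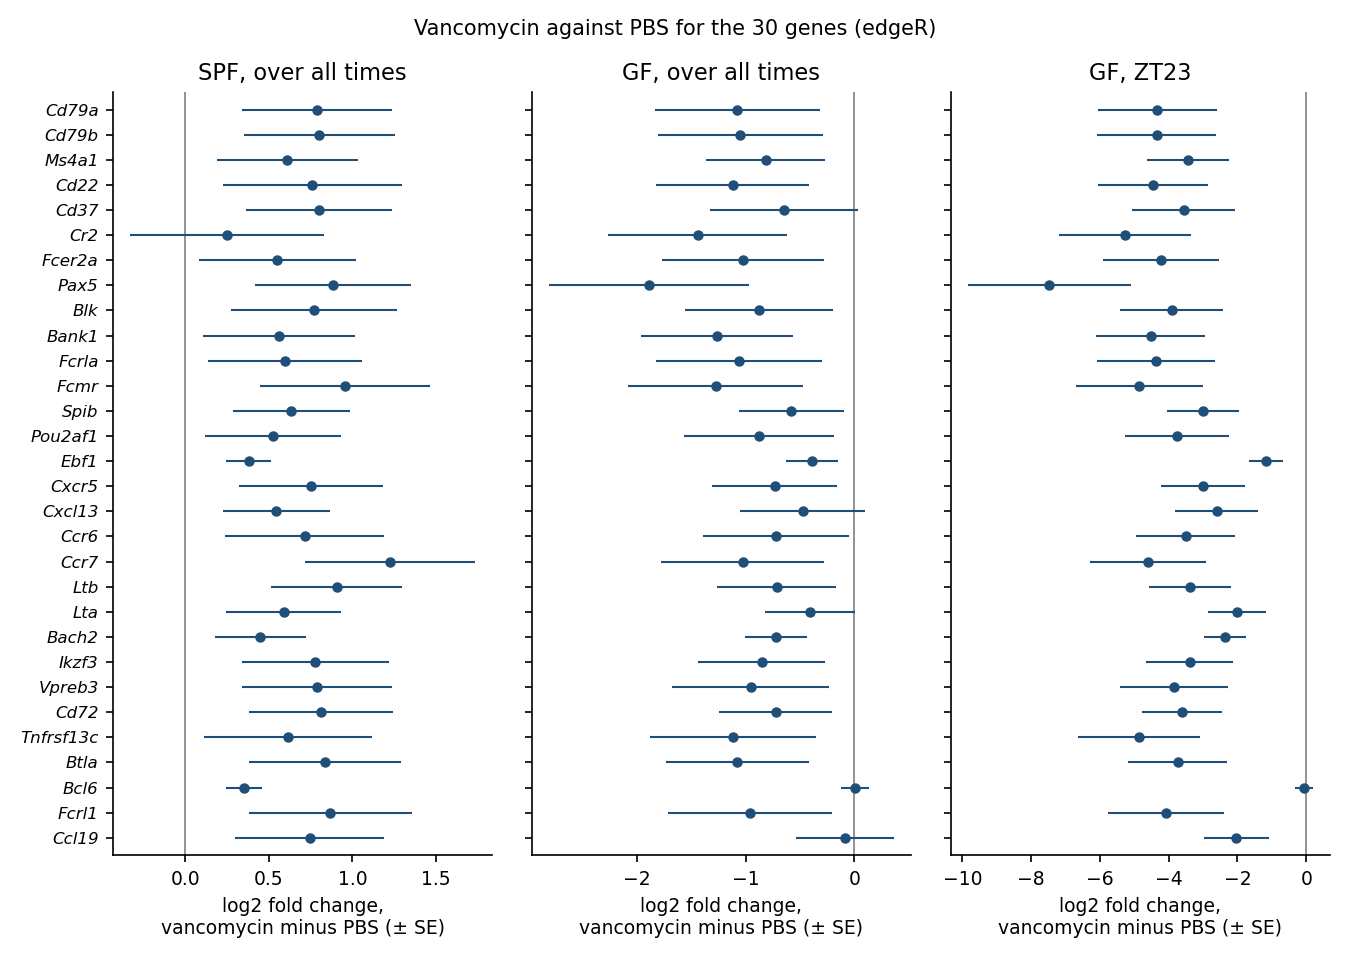
Log2 fold change of each of the 30 genes, vancomycin minus PBS (x axes, with their own scales), with the standard error as a bar: SPF colon over all times, GF colon over all times, and GF colon at ZT23. All 30 points are positive in SPF colon, 29 are negative in GF colon over all times and 30 are negative at ZT23, and none of the 3 panels holds a gene called by edgeR.

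The time with the widest separation was ZT23 in GF colon. All 30 members had a negative log2 fold change there, with a median of -3.74, and 29 of 30 had an unadjusted p under 0.05, against 12.1% of all genes. None passed in edgeR, which called 0% of all genes and gave the members adjusted p values from 0.309 to 0.921. Without GF PBS ZT23 replicate 3, the library with the highest level, the median was -3.00 and 12 members had an unadjusted p under 0.05. DESeq2 called Pax5 (adjusted p = 0.0323) and Bach2 (0.0214). In 29 members, all but Bcl6, every PBS library lay above every vancomycin library, against 4.79% of all genes. Since most members vary together, neither count of 29 is one of separate measurements. The other times of GF colon had medians of 0.58 at ZT5, -1.38 at ZT11 and 0.92 at ZT17, with 0 members called in edgeR (0% of all genes each), 0 at an unadjusted p under 0.05 and 0 called by DESeq2. At ZT5 and ZT17 the sign rested on single libraries: the ZT5 median ran from -0.20 (without GF Vancomycin ZT5 replicate 4) to 2.88 (without GF PBS ZT5 replicate 1), and the ZT17 median from -1.14 (without GF Vancomycin ZT17 replicate 1) to 3.78 (without GF PBS ZT17 replicate 3). Without GF PBS ZT5 replicate 1 there were 16 members at an unadjusted p under 0.05 at ZT5, and without GF PBS ZT17 replicate 3 there were 24 at ZT17. The ZT11 median stayed negative with each library left out (-1.84 to -0.74, the latter without GF PBS ZT11 replicate 1). A distal Hox covariate gave medians of 2.25 at ZT5, with 7 members at an unadjusted p under 0.05, and 0.22 at ZT17, and a Y-linked covariate gave 0.99 at ZT5 and 1.77 at ZT17. At ZT11, Ebf1 was the 1 member with vancomycin libraries all below PBS libraries, against 1.3% of all genes. No other member separated at these times, where the shares of all genes with vancomycin higher and lower were 0.684% and 0.448% at ZT5, 1.95% (higher) at ZT11, and 1.11% and 0.903% at ZT17. At ZT23, 1.83% of all genes had vancomycin higher without overlap, and 0 members did.

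At ZT23 in GF colon, Cd79a was at 36.4, 86.9, 198 and 33.7 CPM after PBS and at 0.494, 3.29, 10.4 and 3.33 CPM after vancomycin (log2 fold change -4.33, SE 1.72, edgeR adjusted p = 0.334). Ms4a1 was at 18.4, 44.5, 104 and 19.5 CPM after PBS and at 1.98, 4.46, 7.82 and 2.87 CPM after vancomycin (-3.44, SE 1.19, adjusted p = 0.309). Pax5 was at 142, 183, 519 and 62.0 CPM after PBS and at 0.576, 1.32, 2.84 and 0.310 CPM after vancomycin (-7.47, SE 2.37, adjusted p = 0.309). In each of these B cell genes the lowest PBS library stood well above the highest vancomycin library. Cr2 was at 8.38, 105, 256 and 54.7 CPM after PBS and at 0.0823, 5.27, 5.29 and 0.310 CPM after vancomycin (-5.26, SE 1.92, adjusted p = 0.313). Cxcl13 was at 48.0, 72.3, 58.6 and 34.4 CPM after PBS and at 2.72, 7.68, 18.9 and 5.66 CPM after vancomycin (-2.61, SE 1.21, adjusted p = 0.391). Ltb was at 20.9, 44.4, 115 and 31.8 CPM after PBS and at 1.98, 6.73, 7.67 and 3.96 CPM after vancomycin (-3.38, SE 1.19, adjusted p = 0.309). The complement receptor, the chemokine and the lymphotoxin chain separated too. Bcl6 was at 10.9, 18.9, 21.7 and 12.4 CPM after PBS and at 11.03, 15.7, 15.3 and 18.7 CPM after vancomycin, and its groups overlapped (-0.07, SE 0.26, adjusted p = 0.921).

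The same libraries differed in makeup. All 4 PBS libraries at ZT23 were among those with high Hoxb13, and 3 of them expressed Y-linked genes. Of the 4 vancomycin libraries, 2 had low Hoxb13 and 1 expressed Y-linked genes. With a Y-linked covariate the median log2 fold change was -3.05 and 8 members had an unadjusted p under 0.05, and with a distal Hox covariate it was -2.28 and 9 members did. The 13 T cell markers were all negative at ZT23 (median -3.10), and their summed level ran from 39.8 to 535 CPM after PBS and from 11.7 to 40.1 CPM after vancomycin. The 12 macrophage and dendritic cell markers summed to 326 to 696 CPM after PBS and 67.2 to 232 CPM after vancomycin, with 11 negative. The plasma cell markers overlapped, at 729 to 1622 CPM after PBS and 494 to 788 CPM after vancomycin. The 5 fat markers were all positive (median 3.15), with Adipoq at 0.0812 to 3.22 CPM after PBS and 7.16 to 73.8 CPM after vancomycin. The part of this makeup in the difference was not tested beyond these covariates.

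**Figure D4:**
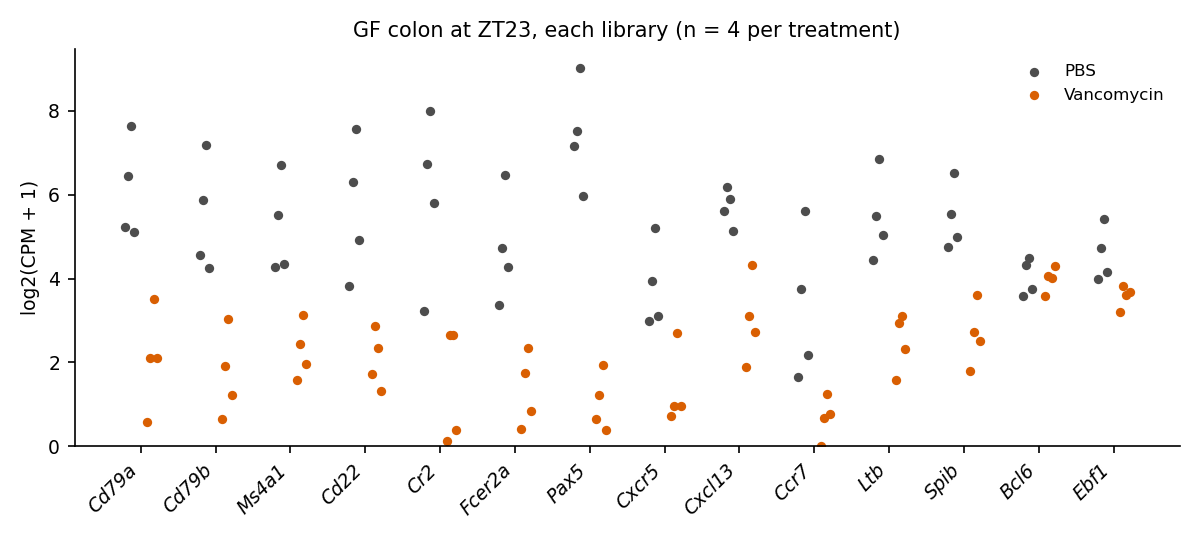
Each point is a GF library at ZT23, with 14 of the genes on the x axis and log2(CPM + 1) on the y axis, and 4 libraries for each treatment. For 13 of these genes all PBS points lie above all vancomycin points, and for Bcl6 the points mix.

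Treatment by time in GF colon called 0 members, against 0% of all genes, with 9 members at an unadjusted p under 0.05 and 0 called by DESeq2. Without GF PBS ZT17 replicate 3 there were 28 such members and without GF PBS ZT23 replicate 3 there was 1. Time of day called 0 members after PBS (0.142% of all genes) and 0 after vancomycin (0.142%). None had an unadjusted p under 0.05 in either by edgeR, and DESeq2 called 0 in both. Without GF PBS ZT5 replicate 1 there were 27 such members after PBS. With a distal Hox covariate 20 members had an unadjusted p under 0.05 for treatment by time and 15 for time of day after vancomycin, and 0 were called.

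Whether vancomycin acted differently in SPF and GF colon was tested in 1 fit of all 64 libraries, using differences within each table. All 30 members had a positive difference (SPF minus GF), from 0.35 in Bcl6 to 2.77 in Pax5, with a median of 1.63. No member passed in edgeR, which called 0% of the 16604 genes tested in both tables, and DESeq2 also called 0 members. An unadjusted p under 0.05 was found in 19 members, a share of 63.3% against 9.94% of all genes, and in 20 by DESeq2. Most members vary together, so this share is not that of separate measurements. Ebf1 had a difference of 0.77 (SE 0.28, edgeR adjusted p = 0.422), Pax5 of 2.77 (SE 1.04, adjusted p = 0.424) and Cd79a of 1.87 (SE 0.89, adjusted p = 0.485). Without GF PBS ZT17 replicate 3 the median was 0.93 and 2 members had an unadjusted p under 0.05, and 2 members also did without GF PBS ZT5 replicate 1. Without GF Vancomycin ZT17 replicate 1 the median was 2.15 and 29 members had such a p, so single germ-free libraries moved this count widely while 0 members were called with any library left out. The Y-linked and distal Hox covariates were fitted in GF colon alone, so this difference was not adjusted for the makeup of the libraries.

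Companion genes of the pathway were taken from lists of 30 genes of B cell receptor signalling and B cell identity, 28 of the lymphotoxin pathway and follicle organisers, and 15 of the germinal centre. No gene of the 3 lists passed over all times in SPF or GF colon, in edgeR. In SPF colon, 29 of 30 receptor signalling genes had a positive log2 fold change (median 0.54, with 3 at an unadjusted p under 0.05), led by the exchange factor Vav1 (0.55, SE 0.21, adjusted p = 0.197) and the kinase Syk (0.25, SE 0.10, adjusted p = 0.222). Of the lymphotoxin list 24 of 28 were positive (median 0.33, with 12 at an unadjusted p under 0.05), led by the NF-kB subunit Relb (0.30, SE 0.08, adjusted p = 0.0611) and the chemokine receptor Cxcr4 (1.09, SE 0.34, adjusted p = 0.119). Of 14 germinal centre genes tested 12 were positive (median 0.18, with 0 at an unadjusted p under 0.05), led by the cytokine receptor Il21r (0.80, SE 0.45, adjusted p = 0.390) and the transcription factor Mybl1 (0.51, SE 0.30, adjusted p = 0.404). The 3 lists lay on the same side as the members and nearer to 0.

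In GF colon over all times, 28 of 30 receptor signalling genes were negative (median -0.37), with Syk (log2 fold change -0.27, SE 0.13) and the ETS factor Ets1 (-0.65, SE 0.32) at the smallest p. Of the lymphotoxin list 19 of 28 were negative (median -0.12), with the BAFF and APRIL receptor Tnfrsf13b (-1.36, SE 0.56) and the oxysterol receptor Gpr183 (-0.78, SE 0.37) first. Of 13 germinal centre genes tested 8 were negative (median -0.03), with the death receptor Fas (0.26, SE 0.12) and Il21r (-0.90, SE 0.58) first. An unadjusted p under 0.05 was found in 1, 3 and 1 gene of these lists, and every edgeR adjusted p rounded to 1.00.

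Markers of other cells over all times in SPF colon were these. All 13 T cell markers were positive (median 1.00, with 11 at an unadjusted p under 0.05), and Cd3d, a chain of the T cell receptor complex, passed (log2 fold change 1.92, SE 0.46, edgeR adjusted p = 0.0428). Their summed level ran from 14.9 to 404 CPM after PBS and from 18.1 to 630 CPM after vancomycin. The 12 macrophage and dendritic cell markers were all positive (median 0.30), and of 6 M cell markers Marcksl1 passed (0.73, SE 0.17, adjusted p = 0.0339). Plasma cell markers went both ways, 4 positive and 5 negative (median -0.09), and summed to 856 to 2647 CPM after PBS and 577 to 1542 CPM after vancomycin. All 8 markers of follicular dendritic cells and lymphoid stroma were positive (median 0.27). Of 8 epithelium markers 7 were negative, and the keratin Krt18 passed (log2 fold change -0.48, SE 0.10, edgeR adjusted p = 0.019). The 8 smooth muscle markers (median -0.11) and the 5 fat markers (median -1.34) were all negative, and none passed. In GF colon over all times no marker passed: all 13 T cell markers (median -0.60) and all 8 plasma cell markers tested (median -0.45) were negative, and all 5 fat markers were positive (median 1.01). Their part in the members' values was not tested.

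Most members moved as a block between libraries of 1 group. After group means were subtracted, the correlation of a member with the mean of the other members was at least 0.90 in 27 of 30 members in SPF colon, with Ebf1 at 0.71, Bach2 at 0.62 and Bcl6 at 0.62. In GF colon it was lowest for Bcl6 (0.34), Bach2 (0.68) and Ebf1 (0.75), and Cr2 was at 0.83. The spread within groups followed the same line: in SPF colon the SD of log2 CPM was 1.44 for Cd79a and 1.92 for Cr2, above the 95th percentile of all genes (1.09), and 0.40 for Ebf1 and 0.32 for Bcl6, near the median of all genes (0.31). In GF colon it was 2.52 for Cd79a, 3.48 for Pax5 and 0.37 for Bcl6, against a median of 0.38 over all genes. These correlations describe 32 libraries per table whose genes share library and depth.

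The 10 non-members whose pattern was most like the mean of the members over both tables were Ighd, H2-Oa, Il21r, Coro1a, H2-DMb2, H2-Eb2, H2-Ob, Hvcn1, Sash3 and Cd52, with a mean correlation from 0.98 to 0.99 over the 32 libraries of each table after subtracting group means. Ighd encodes the constant region of IgD, H2-Oa and H2-Ob the chaperone that tunes MHC class II loading in B cells, and Hvcn1 a proton channel of B cells. Of 16568 non-members compared, 365 had a mean correlation over 0.8.

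Cd79a was set against 8 genes of other cells and of position in each table, 16 relations in all, with group means subtracted and p from permutations within groups, adjusted over the 16. It followed Cd3e of T cells in SPF colon (Pearson r = 0.92, adjusted permutation p = 6.4e-05, Spearman rho = 0.96, adjusted p = 6.4e-05, n = 32) and in GF colon (r = 0.81, rho = 0.81, both adjusted permutation p = 6.4e-05, n = 32). Without the 2 libraries farthest from the median of Cd79a, r was 0.91 and 0.77. It followed C1qa of macrophages (r = 0.85 in SPF and 0.89 in GF colon, rho = 0.88 and 0.88, all adjusted permutation p = 6.4e-05). It also followed Ccl21a of lymphatic and lymphoid stroma (r = 0.85 and 0.66, rho = 0.84 and 0.66, with adjusted permutation p from 6.4e-05 to 8.69e-04). The smallest p the permutations could give was 1e-05. Without the 2 farthest libraries these r were 0.88, 0.88, 0.80 and 0.65, in the order named.

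Relations with the other markers were weaker or went the other way. With Jchain, the joining chain of antibodies made by plasma cells, r was 0.09 in SPF colon (adjusted permutation p = 0.614, rho = 0.10, adjusted p = 0.598) and 0.37 in GF colon (adjusted p = 0.101, rho = 0.32, adjusted p = 0.140). With Epcam of epithelium r was -0.66 in SPF colon (adjusted permutation p = 5.71e-04, rho = -0.71, adjusted p = 5.33e-04) and -0.27 in GF colon (adjusted p = 0.232, rho = -0.25, adjusted p = 0.276). With Myh11 of smooth muscle r was -0.43 in SPF colon (adjusted permutation p = 0.0789, rho = -0.45, adjusted p = 0.0487) and -0.48 in GF colon (adjusted p = 0.0334, rho = -0.44, adjusted p = 0.0487). With Adipoq of fat r was -0.11 in SPF colon (adjusted permutation p = 0.614, rho = -0.09, adjusted p = 0.648) and -0.37 in GF colon (adjusted p = 0.108, rho = -0.35, adjusted p = 0.137). Without the 2 farthest libraries r in SPF and GF colon was 0.18 and 0.46 for Jchain, -0.67 and -0.30 for Epcam, -0.35 and -0.41 for Myh11, and -0.07 and -0.33 for Adipoq. Each of these compares RNA shares within a library.

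Hoxb13 in SPF colon was lowest in 3 libraries, all of ZT11 (83.1 to 129 CPM), whose member mean lay between 1.66 and 2.31. In the other 29 SPF libraries (183 to 437 CPM) the member mean was over 3 in 24, and Cd79a had r = -0.05 (permutation p = 0.786) and rho = -0.31 (p = 0.107) with Hoxb13. The GF libraries formed separate clusters of Hoxb13 too, so no pooled value is given for either table. For r and rho within a cluster, unlike the relations above, group means were not subtracted, so differences between treatments and times enter them. Their permutations ran over all libraries of the cluster, and their p values were not adjusted. In the 20 GF libraries with high Hoxb13, Cd79a had a median of 34.7 CPM (1.89 to 198), and the mean log2 CPM of the members had a median of 3.41. In the 12 with low Hoxb13 the medians were 0.747 CPM (0.405 to 31.6) and 0.01. The member mean was over 3 in 11 of the 20 and in 1 of the 12, GF Vancomycin ZT5 replicate 3 at 3.51. Within the high cluster r was 0.58 (permutation p = 0.00563) and rho 0.33 (p = 0.159, n = 20), and within the low cluster r was -0.46 (permutation p = 0.146) and rho -0.22 (p = 0.485, n = 12). By Y-linked expression, the member mean had a median of 2.52 (-0.52 to 5.96) in the 21 GF libraries with it and of 1.32 (-0.61 to 5.10) in the 11 without.

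**Figure D5:**
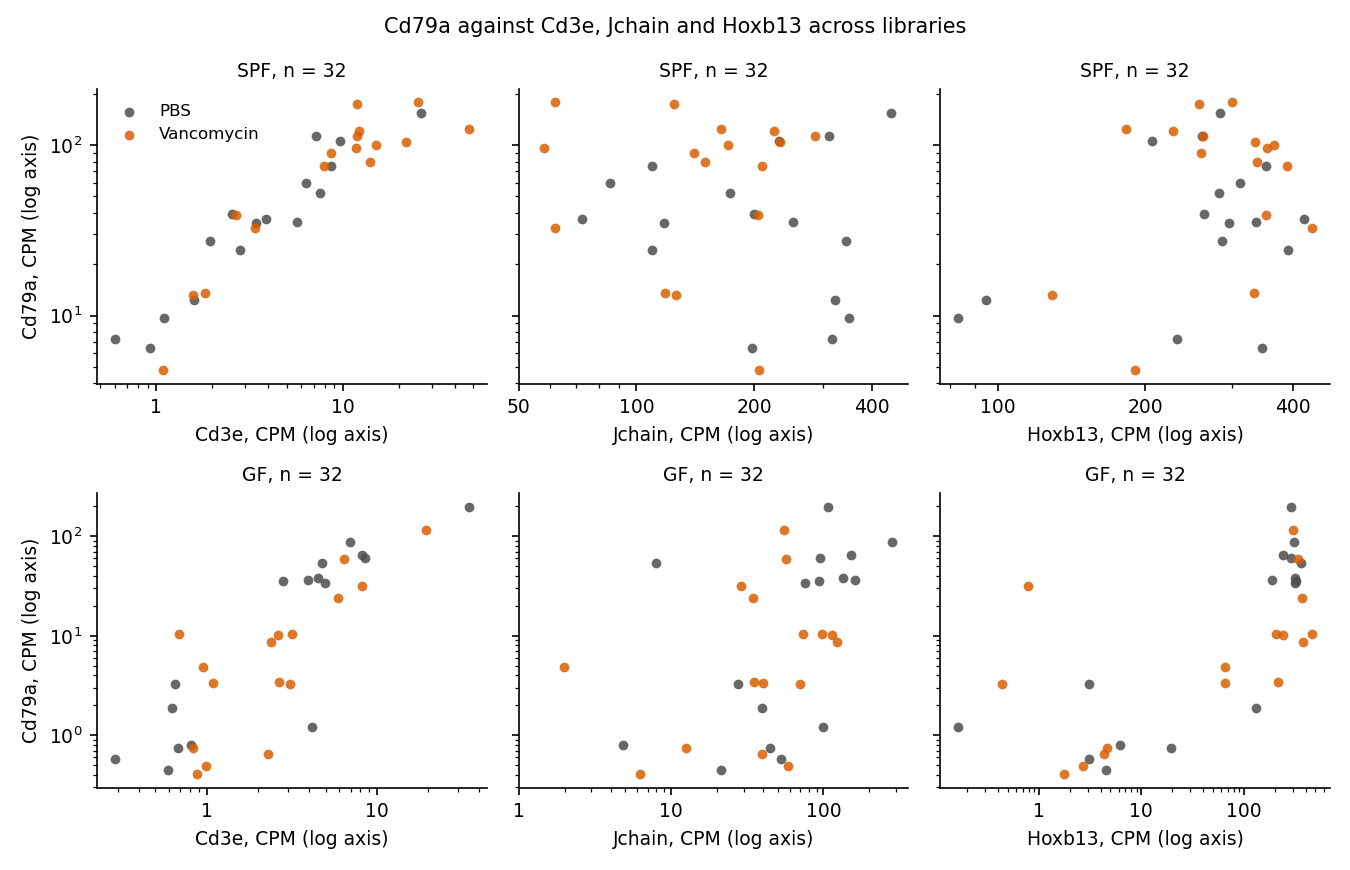
Cd79a (y axes, CPM, log axis) against Cd3e, Jchain and Hoxb13 (x axes, CPM, log axis) in each of 32 SPF libraries (top) and 32 GF libraries (bottom). Cd79a rises along Cd3e in both tables, shows no common line with Jchain in SPF colon, and in GF colon the 12 libraries with Hoxb13 of at most 19.4 CPM hold the lowest 9 values.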

How the data were processed

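Whole colon RNA was sequenced as single-end poly(A) libraries of 75 cycles from 1000 ng of RNA, per the labels' protocols. Per the submitters' processing notes, reads were trimmed with Trim Galore 0.6.2 and cutadapt 3.5 and quantified with Salmon on GRCm39. The deposited values, 1 table for SPF and 1 for GF mice, are named as normalized, in a way not given in the sources used here. As deposited, they were read as estimated counts per gene from Salmon: they are not whole and sum to different totals per library. Any scaling already in them would enter every count-based test and CPM. They were rounded, genes with at least 10 counts in at least 4 libraries were kept, and rows with no gene name (49 per table) were tested under their identifiers. Group means (8 per table, 16 in the joint fit) were fitted with edgeR 4.0.16 (quasi-likelihood, TMM) on limma 3.58.1 in R 4.3.3, with Benjamini-Hochberg adjustment over all genes and a threshold of 0.05. Log2 CPM used a prior count of 2. Correlations used 100000 permutations, within groups for the 16 relations of Cd79a and over all libraries of a cluster for those within Hoxb13 clusters. DESeq2 1.42.0, RLE scaling, no filter, a replicate block and leaving out each library were alternatives. In GF mice a Y-linked or distal Hox covariate and a fit of the libraries with Y-linked expression alone were added. The fits over all times were tested on simulated data in which genes varied independently. The shared variation of the members was not part of that simulation. Among 992 pairs of libraries 0 were identical. The 30 members, the other gene lists and the tests were chosen with earlier results of these data known. Members described in the text with values in each treatment were chosen by role, except Ebf1, which was described because it passed the threshold. The 2 leading genes of each companion list were chosen by p. Btla, Ikzf3, Bach2, Fcmr and the markers were named after their values were seen. Depth limits members at a few counts in GF libraries.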

Additional observations from a re-analysis of the deposited data

Results flagged for a closer look

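In SPF colon after PBS at ZT11, replicate 2 had a mean log2 CPM of the 30 genes of 5.06, while the other 3 libraries of its group lay between 1.66 and 2.15. Its gap to the nearest of them was 0.853 of the group's whole range, above the limit for an extreme value among 4 samples. Its Cd79a was at 113 CPM, against 7.31, 9.61 and 12.3 CPM in the others. Hoxb13, a gene of the distal colon, was at 261 CPM in it and at 232, 83.1 and 94.6 CPM in the others, in the same order, and the latter 2 are the lowest of the 32 SPF libraries. Its Ebf1, at 37.4 CPM, was close to theirs (31.6 to 35.3 CPM). Chance flags about 1 in 20 groups in this way, and 16 groups were examined. The cause was not tested.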

How the results depend on the processing

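Members called by edgeR numbered 0 in 16 of 17 comparisons and 1 (Ebf1) in SPF time of day after vancomycin. DESeq2 called 1 member at SPF ZT17 (edgeR: 0 to 1 with each library left out in turn) and 2 members in GF colon at ZT23. The Ebf1 call was made in 30 of 32 fits with a library left out, a count of 0 to 1, and with RLE scaling (adjusted p = 0.0239), no filter (0.0309) and the replicate block (0.0252). The main fits did not pair libraries by number. Same-numbered libraries of different groups had correlations from -0.29 to 0.49 (SPF) and -0.54 to 0.55 (GF), with 31 and 33 of 112 over 0.1. Their median was 0.021 in SPF and -0.054 in GF colon, against -0.0091 and 0.0034 for different-numbered libraries. The replicate block called 0 members elsewhere, and 16 members had an unadjusted p under 0.05 in SPF colon over all times with it.

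In GF colon the median over the members turned sign at ZT5 and ZT17, and signs of single members were followed for 14 members over all times and at ZT23. Over all times, leaving out each library gave -1.73 to 0.0010 for Cd79b, -0.83 to 0.15 for Cxcl13, -1.78 to 0.17 for Ccr7 and -0.039 to 0.046 for Bcl6, and the Y-linked covariate gave 0.092 for Cxcl13. At ZT23 the range for Bcl6 was -0.22 to 0.093, with 0.053 under the Y-linked and 0.055 under the distal Hox covariate. The positive ends for Cd79b, Cxcl13 and Ccr7 came without GF PBS ZT17 replicate 3. The cause was not tested.

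Without subtracting group means, Cd79a had r of -0.157 with Jchain and -0.561 with Myh11 in SPF colon, and of 0.458 with Jchain, -0.414 with Epcam and -0.529 with Adipoq in GF colon.

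DESeq2 called more of all genes than edgeR: 481 against 137 in SPF colon over all times (80 with no filter), 244 against 14 at ZT5, 94 against 0 at ZT11, 147 against 54 at ZT17, 42 against 0 at ZT23, 205 against 61 for treatment by time, and 2639 against 1507 and 2254 against 1389 for time after PBS and vancomycin. In GF colon it called 5 against 0 over all times, 9, 8, 13 and 55 against 0 at the 4 times, 9 against 0 for treatment by time, and 396 and 179 against 24 for time, and 16 against 0 for the SPF minus GF difference. With each library left out, edgeR called 47 to 518 of all genes in SPF colon over all times (lowest without SPF Vancomycin ZT5 replicate 4, highest without SPF Vancomycin ZT11 replicate 3), 1 to 88 at ZT5, 0 to 109 at ZT11, 21 to 67 at ZT17, 671 to 1942 and 798 to 1717 for time after PBS and vancomycin, and 15 to 66 and 14 to 69 for these in GF colon.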

Other observations

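The ratio of Pax5 to Cd79a had a higher median in GF than in SPF libraries, with ranges that overlapped. In libraries with Cd79a of at least 10 CPM, it had a median of 0.568 in 28 SPF libraries (0.0794 to 1.20) and of 2.59 in 16 GF libraries (0.272 to 4.33). The GF median was 4.56 times the SPF median, while for the other 28 members the same quotient of ratios lay between 0.688 (Ccl19) and 1.93 (Cr2). The tables were scaled apart, and no test was made between them.

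Cr2 stood at 13.5 CPM in GF PBS ZT5 replicate 2 and at 13.3 CPM in GF Vancomycin ZT5 replicate 1, where Cd79a was at 0.444 and 0.648 CPM. The cause was not tested.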
